A study of Mus musculus with 36 samples.

Results

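Interferon-induced genes are the subject here: 52 genes chosen by symbol from the deposited tables, out of 55291 symbols measured in the hearts of CUG960 mice. They fall into 4 classes by what is known of their induction and role. The GTPases (20 genes) are Gbp2, Gbp3, Gbp4, Gbp5, Gbp6, Gbp7, Gbp8, Gbp9, Gbp10, Gbp11, Irgm1, Irgm2, Igtp, Iigp1, Tgtp1, Tgtp2, Ifi47, Gm12250, Gm4951 and F830016B08Rik. The type II regulators and chemokine (6 genes) are Irf1, Irf8, Nlrc5, Ciita, Socs1 and Cxcl9. The type I targets (21 genes) are Stat2, Irf7, Irf9, Isg15, Ifit1, Ifit2, Ifit3, Ifi35, Ifi44, Oas1a, Oas2, Oasl1, Oasl2, Mx1, Mx2, Rsad2, Usp18, Bst2, Xaf1, Rtp4 and Ifih1, and the shared targets (5 genes) are Cxcl10, Zbp1, Parp9, Parp14 and Dtx3l. All 52 passed the filter on low counts that left 19231 genes for testing.

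CUG960 mice model the heart disease of myotonic dystrophy type 1, in which expanded CUG repeat RNA (CUGexp RNA) sequesters MBNL splicing factors. Poly(A) RNA was sequenced from the left ventricle and the atria at 21 weeks of age, with 3 libraries for each of 6 cohorts in each tissue, 36 in all. Every animal carried TREDT960I on both alleles (Hom), a repeat transgene under a tetracycline-responsive promoter, and 1 copy (Hem) of MHCrtTA, whose α-myosin heavy chain promoter expresses the doxycycline-dependent activator in cardiomyocytes, so all controls carried both transgenes. The -dox mice never received doxycycline (dox), the +dox mice received it from postnatal day 1 onward, and the +/-dox mice were taken off it at 9 weeks. The MBNL1, MBNL2 and MBNL1+MBNL2 mice stayed on dox and were injected at 9 weeks, through the tail vein, with AAV9 carrying FLAG-tagged human MBNL1, MYC-tagged human MBNL2 or both. The +dox mice received no vector, and the study's AAV9-tdTomato control cohort is not among the 36 libraries. In comparisons of these cohorts with +dox mice, MBNL and vector injection therefore cannot be told apart. No library comes from a mouse on dox without induced repeats. In comparisons of -dox or +/-dox with +dox mice, repeat RNA and dox itself thus cannot be told apart.

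Interferons are secreted cytokines that cells release on sensing foreign or misplaced nucleic acid or, for type II interferon (interferon gamma), chiefly from T and natural killer cells. Type I interferons act through a transcription factor complex that includes STAT2 and IRF9 on the interferon-stimulated response element (ISRE) and induce antiviral genes such as the OAS, IFIT and MX families. Interferon gamma acts through the gamma-activated site (GAS), induces IRF1 and chemokines, and strongly induces the guanylate-binding proteins (GBP) and immunity-related GTPases (IRG) that coat and break intracellular vacuoles of pathogens in mice. The division into type I and type II targets is one of degree, since many of these genes respond to both.

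Promoter windows are shown for 8 members because matches to the elements of both interferon types can be read in them, although the classes share these elements. Each is the 160 bases before the RefSeq start of the gene on GRCm38.p6 (mm10), 5′ to 3′ on the strand of the gene, with matches to ISRE (GAAANNGAAA) and GAS (TTCNNNGAA) in capitals. Both strands were searched, and the capitals in Gbp2 and Ifit1 are ISRE matches read on the other strand. The windows lie at chr11:58199396-58199555 for Igtp and chr11:58214817-58214976 for Irgm2 (plus strand), at chr11:49064213-49064372 for Tgtp2 and chr11:48871421-48871580 for Irgm1 (minus strand), at chr3:142620503-142620662 for Gbp2 and chr11:53769854-53770013 for Irf1 (plus strand), at chr4:156200819-156200978 for Isg15 (minus strand) and at chr19:34640729-34640888 for Ifit1 (plus strand).
Igtp: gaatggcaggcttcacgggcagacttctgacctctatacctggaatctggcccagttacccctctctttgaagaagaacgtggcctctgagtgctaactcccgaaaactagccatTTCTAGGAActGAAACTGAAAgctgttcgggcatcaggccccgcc
Irgm2: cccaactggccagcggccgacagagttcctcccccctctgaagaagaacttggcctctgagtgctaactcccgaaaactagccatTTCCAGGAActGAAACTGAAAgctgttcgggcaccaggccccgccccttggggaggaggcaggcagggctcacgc
Tgtp2: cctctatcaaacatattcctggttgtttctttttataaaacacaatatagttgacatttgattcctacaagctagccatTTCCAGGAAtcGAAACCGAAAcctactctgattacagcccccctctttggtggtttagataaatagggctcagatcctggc
Irgm1: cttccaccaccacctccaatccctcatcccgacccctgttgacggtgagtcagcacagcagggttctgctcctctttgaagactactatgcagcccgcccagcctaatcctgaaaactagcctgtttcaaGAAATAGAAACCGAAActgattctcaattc
Gbp2: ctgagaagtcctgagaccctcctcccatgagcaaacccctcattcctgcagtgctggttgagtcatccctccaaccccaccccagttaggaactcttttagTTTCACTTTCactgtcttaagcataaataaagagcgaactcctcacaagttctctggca
Irf1: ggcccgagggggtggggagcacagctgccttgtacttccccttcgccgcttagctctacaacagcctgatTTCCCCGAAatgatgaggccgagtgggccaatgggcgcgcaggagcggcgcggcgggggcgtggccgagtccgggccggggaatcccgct
Isg15: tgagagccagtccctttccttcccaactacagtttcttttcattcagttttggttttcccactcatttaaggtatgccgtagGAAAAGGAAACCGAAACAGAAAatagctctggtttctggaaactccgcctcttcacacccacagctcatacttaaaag
Ifit1: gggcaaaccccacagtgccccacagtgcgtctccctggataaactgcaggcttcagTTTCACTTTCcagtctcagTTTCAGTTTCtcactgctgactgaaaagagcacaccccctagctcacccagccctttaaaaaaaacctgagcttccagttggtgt

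Igtp, Irgm2 and Tgtp2 carried a GAS followed, after a gap of 2 bases, by an ISRE, and the last base of the ISRE lay 25, 55 and 61 bases before the start. Of the 27025 genes with a RefSeq window, 5 held that arrangement in the 250 bases before their start, namely Igtp, Irgm2, Tgtp1, Tgtp2 and Gm12185, and the arrangement was looked for after these sequences were seen. In the same 250 bases an ISRE was found in 10 of 11 GTPases, 7 of 16 type I targets and 3.46% of all genes. A GAS was found in 7 of 11 GTPases, 3 of 16 type I targets, 2 of 4 type II regulators and 8.13% of all genes. Windows were at hand for 33 of the 52 members. These are matches of letters only.

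The total expected count per library was between 55.03 M and 97.1 M. The summed TPM of 3 ventricular markers (Myl2, Myl3 and Irx4) was at least 19777 in every ventricular library and at most 805 in every atrial library. Library names starting TC-53 cover replicates 1 and 2 of all cohorts but MBNL1+MBNL2, and those starting TC-56 cover replicate 3 and the whole MBNL1+MBNL2 cohort. Replicate 3 of the same 5 cohorts was also the animal with Xist (13.6 to 41.2 TPM, against at most 0.15 TPM in the other libraries) and without Y-linked transcripts, so sex and library series cannot be told apart. The ventricular MBNL1 replicate 1 library had counts in 16885 genes, the fewest, where the most was 24041. All comparisons with +dox mice in a tissue share the same 3 +dox libraries.

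The +dox libraries differed widely from one another, and replicate 3 was the highest for nearly every member. On the median of log2(TPM + 1) over the 20 GTPases, the ventricular +dox libraries stood at 3.74, 2.17 and 5.23 in replicates 1, 2 and 3, and the atrial ones at 3.34, 2.29 and 4.69. Replicate 2 was thus within the range of the -dox libraries (1.86 to 2.65 in ventricle, 1.65 to 2.54 in atria), while replicates 1 and 3 lay above it in both tissues. The summed TPM of the 20 GTPases was 771, 72.3 and 3495 in the ventricular +dox libraries and 67.1, 114.7 and 65.8 in ventricular -dox replicates 1, 2 and 3. The spread from the lowest to the highest +dox library was 3.06 log2 units for the GTPase level and 1.14 for the type I level in ventricle, and 2.40 and 0.70 in atria.

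Counted gene by gene, the range over the +dox libraries reached 4-fold (log2 CPM with a prior count of 2) in 20 of 20 GTPases, 4 of 6 type II regulators, 4 of 21 type I targets and 3 of 5 shared targets in ventricle, against 4.36% of all genes tested. In atria it did so in 15 of 20 GTPases, 3 of 6 type II regulators and none of the 21 type I or 5 shared targets, against 3.31% of all genes. Replicate 3 was the highest of the ventricular +dox libraries for 51 of 52 members, against 37% of all genes, and the exception was Oasl1. It was the highest of the atrial +dox libraries for 48 of 52 members, against 35.8% of all genes.

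**Figure D1:**
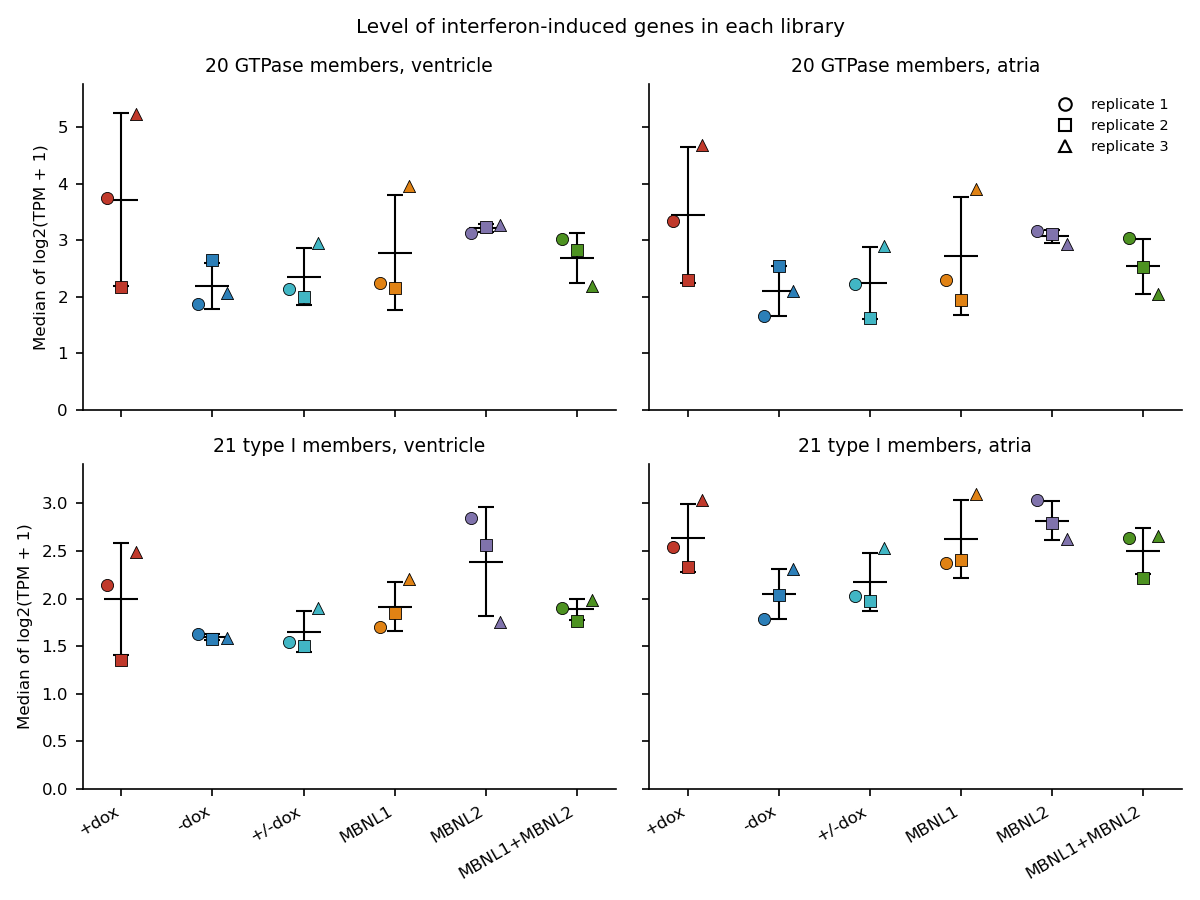
Median of log2(TPM + 1) over the 20 GTPases (upper row) and the 21 type I targets (lower row) in each library of ventricle (left) and atria (right), by cohort. Symbols are replicates 1 to 3, bars are the mean and SD of 3 libraries, and the +dox libraries range from 2.17 to 5.23 for the ventricular GTPase level.

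Across all 18 libraries of a tissue, the GTPases and the type I targets peaked in different animals. Of the 20 GTPases, 19 had their highest TPM in +dox replicate 3 in ventricle and 19 in atria, and the 6 type II regulators did so in both tissues. Of the 21 type I targets, 13 were highest in MBNL2 replicate 1 and 8 in +dox replicate 3 in ventricle. In atria 14 were highest in MBNL2 replicate 1, 5 in MBNL1 replicate 3 and 2 in +dox replicate 3. The 5 shared targets were highest in +dox replicate 3 in ventricle, and 4 of 5 were in atria. The order of the libraries is a description and carries no test.

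**Figure D2:**
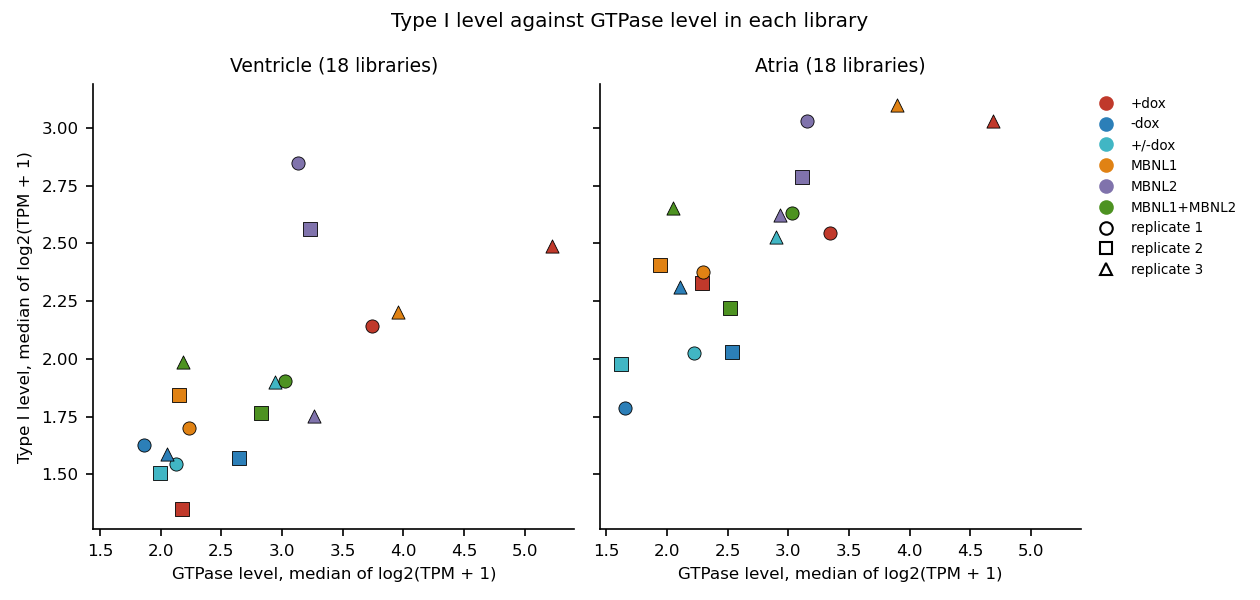
Type I level against GTPase level, each the median of log2(TPM + 1), in the 18 ventricular (left) and 18 atrial (right) libraries, coloured by cohort with a symbol per replicate. Ventricular +dox replicate 3 has the highest GTPase level (5.23), and MBNL2 replicate 1 has the highest type I level (2.85) at a GTPase level of 3.13.

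The same replicate number had the highest GTPase level in ventricle and in atria in 5 of 6 cohorts, all but MBNL2, and the same held for the type I level in 5 of 6 cohorts, all but -dox. The study lists both tissues of the same animals but does not tie them to replicate numbers. Outside MBNL1+MBNL2 it lists 1 female per cohort, sequenced in both tissues. By Xist, replicate 3 of both tissues is that female, so the highest +dox levels of ventricle and atria come from the same mouse. The ventricular GTPase level was next highest after +dox replicate 3 in MBNL1 replicate 3 (3.95), +dox replicate 1 (3.74) and MBNL2 replicate 3 (3.27). Of the 12 ventricular libraries from mice on dox, 7 had a GTPase level above all 6 libraries from -dox and +/-dox mice, and the same count of 7 of 12 was seen in atria. For the type I level the counts were 7 of 12 in ventricle and 8 of 12 in atria.

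**Figure D3:**
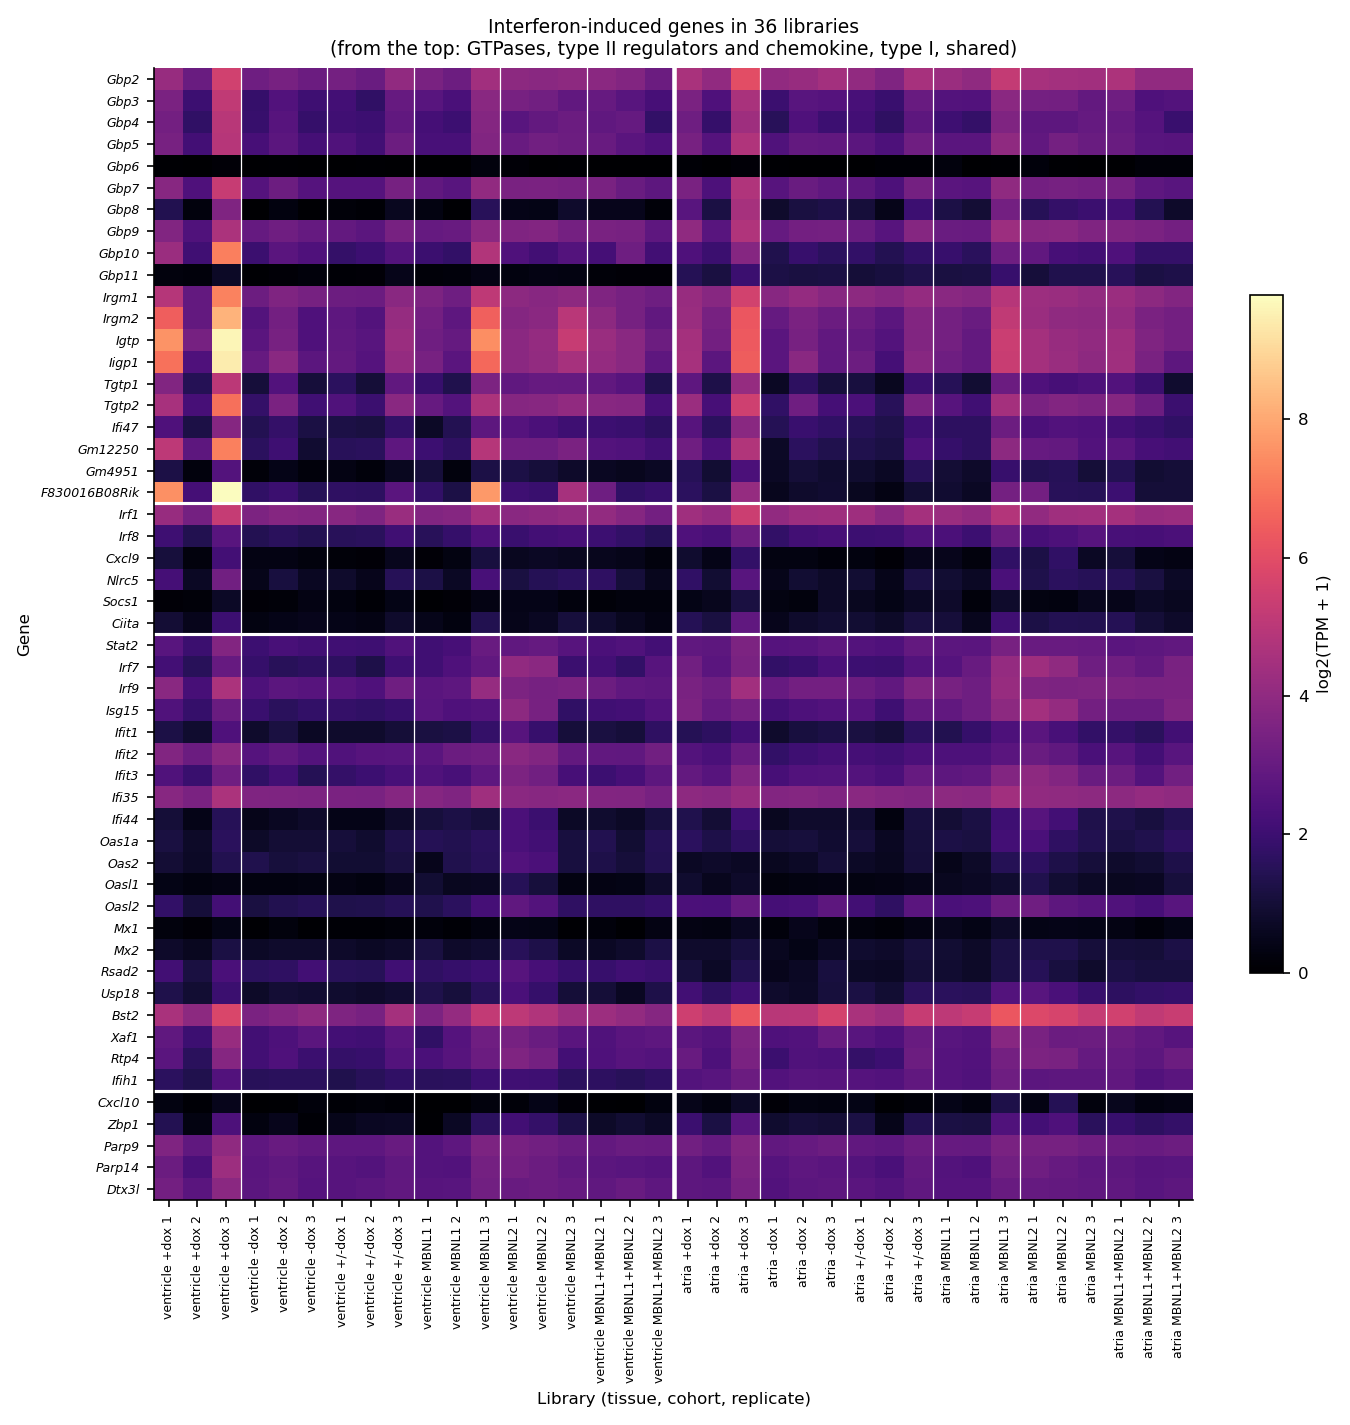
Level of each of the 52 members (rows, grouped by class from the GTPases at the top) in each of the 36 libraries (columns, ventricle then atria, by cohort and replicate), as log2(TPM + 1). The columns of +dox replicate 3 stand out in the GTPase rows, with F830016B08Rik at 887 TPM in ventricle, and MBNL2 replicates 1 and 2 stand out in the type I rows.

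Ventricular GTPases differed most between -dox and +dox mice. Called here means a Benjamini-Hochberg adjusted p below 0.05 in edgeR's quasi-likelihood test over all 19231 genes with a fold change of at least 1.5. By that rule 22 of 52 members (42.3%) were lower in -dox than in +dox ventricles and none was higher, where 7.6% of all genes were called and 4.13% were called and lower. The 22 comprised 14 of 20 GTPases, 1 of 6 type II regulators, 4 of 21 type I targets and 3 of 5 shared targets. The median log2 fold change was -2.58 over the GTPases, -1.43 over the type II regulators, -0.81 over the type I targets and -0.76 over the shared targets, against 0.01 over all genes. The spread among +dox libraries entered every one of these calls, and for only 3 of 52 members did every -dox library lie below every +dox library in TPM (Gm12250, F830016B08Rik and Ifit2), where 18.1% of all genes did so. On CPM scaled by the TMM factors, which leave out transcript length, Gbp8 and Ciita joined them, making 5, against 16.5% of all genes.

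Igtp, an IRG protein also known as Irgm3, was at 191, 9.43 and 796 TPM in +dox replicates 1, 2 and 3 of ventricle and at 5.54, 9.74 and 4.36 TPM in -dox replicates 1, 2 and 3. Replicates 1 and 3 of +dox were far above all others, and +dox replicate 2 lay just under the highest -dox library, so the groups overlapped. The log2 fold change was -5.54 with a standard error (SE) of 1.28 (adjusted p = 0.00287, edgeR). F830016B08Rik, an IRG family gene, was at 181, 3.56 and 887 TPM in +dox ventricles and at 2.33, 2.97 and 1.84 TPM in -dox ventricles. Its 887 TPM was the highest value of any member in any library, the groups did not overlap, and the log2 fold change was -7.10 (SE 1.84, adjusted p = 0.00686, edgeR).

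Iigp1, an IRG effector that binds pathogen vacuoles, was at 118, 4.44 and 686 TPM in +dox ventricles and at 7.12, 13.2 and 5.59 TPM in -dox ventricles. Here +dox replicate 2 was below all 3 -dox libraries, and the log2 fold change of -4.86 (SE 1.29, adjusted p = 0.00811, edgeR) rested on replicates 1 and 3. Irgm2, a regulatory IRG protein, was at 88.9, 6.70 and 303 TPM in +dox and 4.78, 8.96 and 4.33 TPM in -dox ventricles (log2 fold change -4.34, SE 1.06, adjusted p = 0.00459, edgeR). Irgm1, the regulatory IRG protein tied to autophagy, was at 28.4, 6.61 and 153 TPM against 7.95, 11.3 and 9.46 TPM (log2 fold change -2.60, SE 0.66, adjusted p = 0.00623, edgeR). Both overlapped through +dox replicate 2.

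Gm12250, an IRG gene that the annotation lists as a processed pseudogene, was at 32.7, 5.86 and 148 TPM in +dox and 2.09, 3.17 and 0.87 TPM in -dox ventricles. All +dox libraries lay above all -dox libraries, with a log2 fold change of -4.79 (SE 1.05, adjusted p = 0.00191, edgeR), the lowest adjusted p among the 52. Tgtp2, another IRG protein, was at 22.7, 3.76 and 114 TPM against 2.52, 10.4 and 3.22 TPM, with overlap (log2 fold change -2.98, SE 1.03, adjusted p = 0.0409, edgeR). Gm4951, an IRG-like gene, was at 1.39, 0.18 and 4.87 TPM against 0.13, 0.35 and 0.17 TPM, again with +dox replicate 2 among the -dox values (log2 fold change -3.14).

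Among the GBP genes, Gbp10 was at 18.4, 3.26 and 145 TPM in +dox and 2.97, 5.41 and 4.42 TPM in -dox ventricles (log2 fold change -3.58, SE 0.93, adjusted p = 0.00731, edgeR). Gbp8 was at 1.62, 0.19 and 11.3 TPM against 0.02, 0.21 and 0.05 TPM (log2 fold change -5.68, SE 1.53), and its -dox values rest on 3, 21 and 5 counts. In TPM +dox replicate 2 fell among the -dox libraries in both genes, while on TMM-normalized CPM it lay above the 3 -dox libraries for Gbp8 (0.40 against at most 0.31 CPM). Gbp2, a GBP that acts on pathogen vacuoles, was at 17.3, 7.36 and 45.3 TPM against 8.20, 9.79 and 7.76 TPM (log2 fold change -1.35, SE 0.49). Gbp3 was at 10.3, 3.05 and 34.7 TPM against 2.59, 4.65 and 3.09 TPM (log2 fold change -2.11, SE 0.66). Gbp5, which promotes inflammasome assembly, was at 9.67, 3.46 and 29.1 TPM against 3.69, 5.61 and 3.64 TPM (log2 fold change -1.60, SE 0.57). Gbp11, a polymorphic pseudogene in the annotation, was at 0.20, 0.15 and 0.63 TPM against 0.03, 0.10 and 0.16 TPM (log2 fold change -1.84). All 4 showed the same order, with replicate 3 of +dox highest and replicate 2 at or near the -dox values. The other 6 GTPases (Gbp4, Gbp6, Gbp7, Gbp9, Tgtp1 and Ifi47) were not called.

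Of the type II regulators, Nlrc5, the transactivator of MHC class I genes, was called in ventricle. It was at 3.57, 0.59 and 8.68 TPM in +dox and 0.38, 1.21 and 0.56 TPM in -dox ventricles, with overlap (log2 fold change -2.60, SE 0.87, adjusted p = 0.0338, edgeR). Irf1, the transcription factor that relays interferon gamma, was the most abundant of the 6 and stood at 17.3, 9.07 and 37.0 TPM against 10.6, 12.8 and 12.0 TPM. Irf8, a myeloid transcription factor, was at 3.12, 1.64 and 5.25 TPM against 1.70, 2.00 and 1.72 TPM. Neither was called, and in both +dox replicate 2 was the lowest of the 6 libraries.

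The type I targets called in ventricle were Ifit2, Irf9, Stat2 and Bst2, with smaller folds than the called GTPases. Ifit2, an antiviral RNA-binding protein, was at 11.5, 7.63 and 13.5 TPM in +dox and 4.95, 6.13 and 4.89 TPM in -dox ventricles. It was the only type I target whose 3 -dox libraries all lay below the 3 +dox libraries, with a log2 fold change of -0.97 (SE 0.25, adjusted p = 0.00640, edgeR). Irf9, the DNA-binding subunit of the type I complex, was at 13.6, 3.75 and 23.8 TPM against 4.18, 5.63 and 5.11 TPM (log2 fold change -1.34, SE 0.42). Stat2, its partner, was at 5.36, 2.87 and 11.9 TPM against 2.98, 3.88 and 3.34 TPM (log2 fold change -0.90, SE 0.31). Bst2, which tethers budding virus to the cell surface, was at 23.7, 14.1 and 52.8 TPM against 10.2, 11.8 and 14.7 TPM (log2 fold change -1.23, SE 0.44). Ifi35, the next most abundant type I target after Bst2, was at 13.0, 10.5 and 24.3 TPM against 11.2, 11 and 10.7 TPM and was not called.

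Of the shared targets, Zbp1, a sensor of Z-form nucleic acid that triggers necroptosis, was at 1.70, 0.26 and 4.25 TPM in +dox and 0.22, 0.43 and 0.07 TPM in -dox ventricles (log2 fold change -2.92, SE 0.88, adjusted p = 0.0189, edgeR). Parp9 and Dtx3l form an ADP-ribosylating ubiquitin ligase complex. Parp9 was at 11.2, 6.27 and 14.9 TPM against 6.11, 7.20 and 6.31 TPM (log2 fold change -0.67, SE 0.20). Dtx3l was at 8.82, 5.52 and 13.7 TPM against 5.68, 6.68 and 5.04 TPM (log2 fold change -0.62, SE 0.20). The groups overlapped in all 3 genes, through +dox replicate 2.

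**Figure D4:**
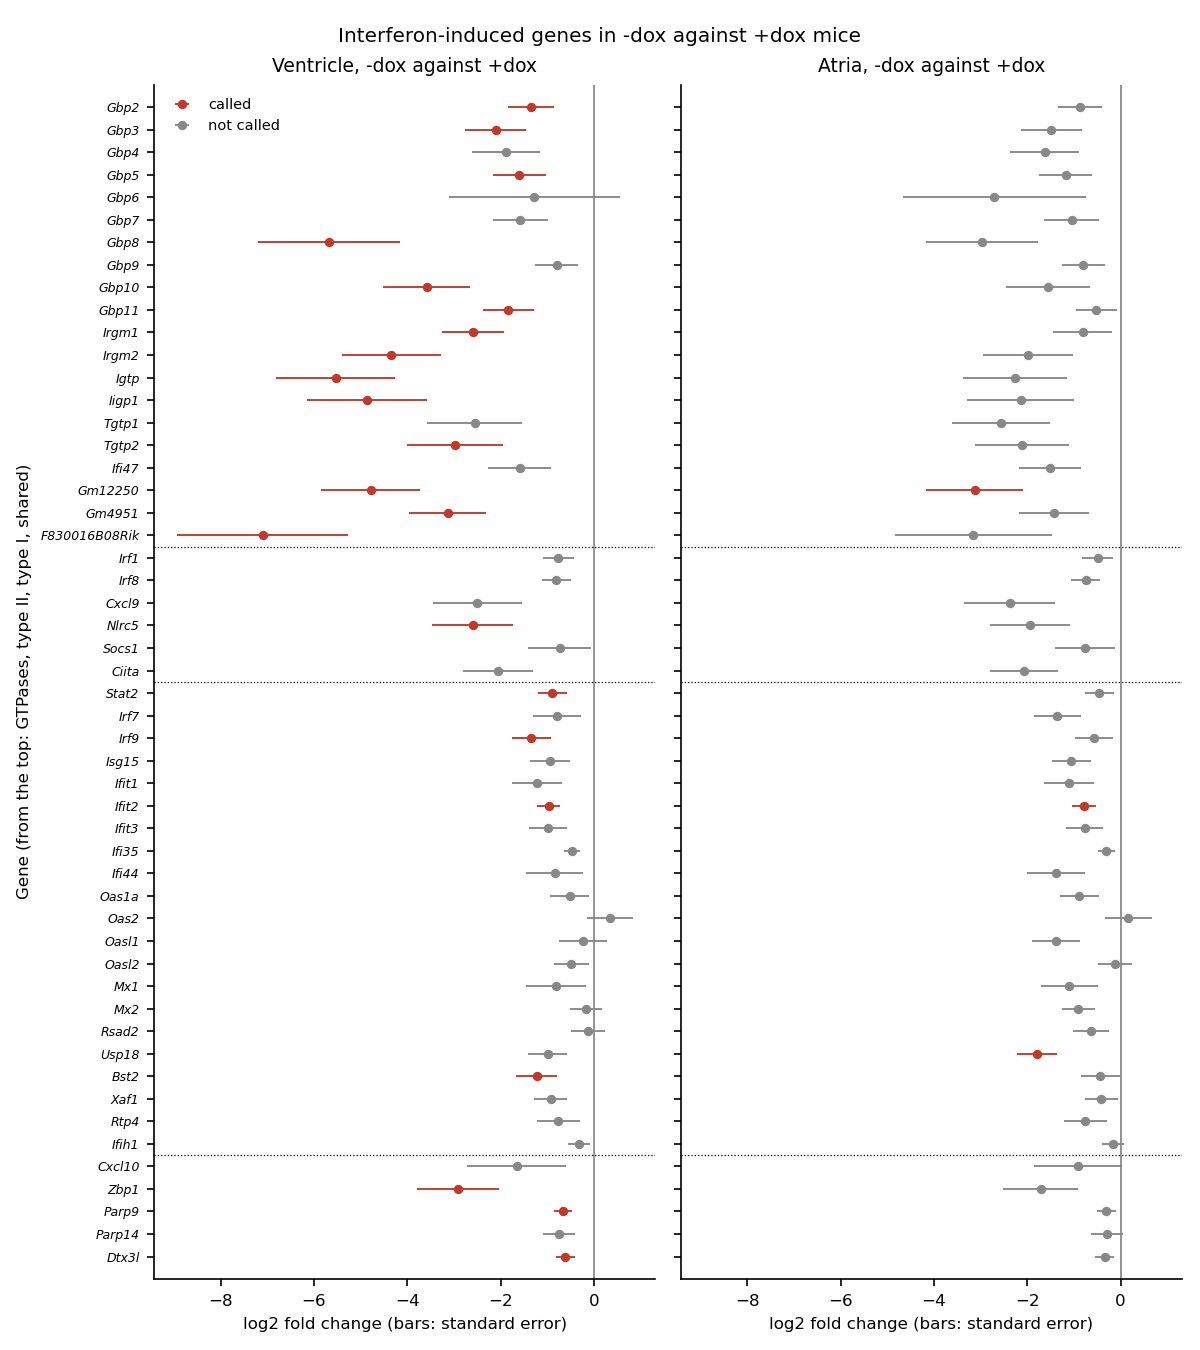
Log2 fold change (points) with its SE (bars) of each of the 52 members in -dox against +dox mice, in ventricle (left) and atria (right), with dotted lines between the classes and called members in red. The 22 called members in ventricle and the 3 in atria are all below 0.

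These ventricular calls depended on single +dox libraries. Without +dox replicate 3, 5 members were called (Igtp, Irgm2, Gm12250, F830016B08Rik and Ifit2), where 7.08% of all genes were called. Without +dox replicate 2, 36 members were called against 7.11% of all genes, and without +dox replicate 1, 16 against 5.54%. Without -dox replicate 1 there were 10 and without -dox replicate 3 there were 11. In a fit of the 6 -dox and +dox libraries alone, Ifit2 was the only member called, against 6.7% of all genes.

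In ventricles of mice taken off dox, which turns the repeats off, members were also lower than in +dox mice. In +/-dox mice 15 of 52 were called, all lower (10 GTPases, 1 type II regulator, 2 type I targets and 2 shared targets), where 6.6% of all genes were called and 3.52% were called and lower. Igtp was at 6.21, 5.35 and 18.3 TPM in +/-dox replicates 1, 2 and 3 (log2 fold change -5.02, SE 1.25, adjusted p = 0.00504, edgeR). Replicate 3 was the highest of the +/-dox libraries and lay above +dox replicate 2. Cxcl9, the interferon gamma-induced chemokine that draws T cells, was at 0.14, 0.11 and 0.46 TPM in +/-dox and 1.11, 0.18 and 3.52 TPM in +dox ventricles (log2 fold change -2.70, SE 0.96, adjusted p = 0.0458, edgeR). Ifit2 was at 4.59, 5.07 and 5.34 TPM, below all +dox libraries (log2 fold change -1.1, SE 0.25, adjusted p = 0.00240, edgeR). The number called was 3 without +dox replicate 3 (6.2% of all genes), 35 without +dox replicate 2 (6.6% of all genes), 8 without +/-dox replicate 1 and 9 without +/-dox replicate 2.

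In the ventricles of MBNL1 mice 1 member was called, Parp9 (4.77, 6.06 and 10.8 TPM, log2 fold change -0.63, SE 0.20, adjusted p = 0.0473, edgeR), where 2.66% of all genes were called. Within that cohort replicate 3 stood apart from replicates 1 and 2 in several GTPases. Igtp was at 8.29, 6.71 and 177 TPM, F830016B08Rik at 2.43, 1.35 and 207 TPM and Iigp1 at 9.84, 5.45 and 103 TPM in replicates 1, 2 and 3. For these genes replicates 1 and 2 were within or near the range of the -dox libraries, and replicate 3 was near +dox replicate 1. Without MBNL1 replicate 3, 12 members were called, against 3.77% of all genes, and without +dox replicate 2, 6 were. None was called without +dox replicate 1, +dox replicate 3, MBNL1 replicate 1 (the library with the fewest genes) or MBNL1 replicate 2.

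In MBNL2 mice the medians of the GTPases and the type I targets lay on opposite sides of 0. In ventricle 5 members were called, where 1.52% of all genes were: Igtp, Iigp1, Irgm1 and Gbp10 were lower than in +dox mice (0.749% of all genes were called and lower), and Oasl1 was higher. Igtp was at 13.8, 16.3 and 38.6 TPM (log2 fold change -3.94, SE 1.18, adjusted p = 0.0419, edgeR), all 3 between +dox replicates 2 and 1. Oasl1, a member of the OAS family, was at 1.88, 1.13 and 0.26 TPM in MBNL2 replicates 1, 2 and 3 and at 0.31, 0.22 and 0.29 TPM in +dox mice (log2 fold change 1.85, SE 0.49, adjusted p = 0.0197, edgeR). Replicates 1 and 2 were above and replicate 3 was among the +dox libraries. The median log2 fold change was -1.21 over the GTPases and 0.34 over the type I targets, against 0.00 over all genes. Since the +dox mice received no vector, MBNL2 and vector injection cannot be told apart here.

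High values of type I targets were found in MBNL2 replicates 1 and 2. Irf7, the master regulator of type I interferon responses, was at 15.5, 13.9 and 2.90 TPM in ventricular MBNL2 replicates 1, 2 and 3 and at 3.5, 1.89 and 6.99 TPM in +dox ventricles. Isg15, a ubiquitin-like antiviral modifier, was at 14.0, 9.84 and 2.37 TPM against 4.46, 2.66 and 7.49 TPM. Oas2, which makes the activator of RNase L, was at 4.66, 4.13 and 1.20 TPM against 0.99, 0.65 and 1.61 TPM. In all 3 genes replicates 1 and 2 exceeded every +dox library, replicate 3 fell within the +dox range or, for Isg15, below it, and none was called with all libraries (adjusted p = 0.117, 0.286 and 0.0555, edgeR). Over all 21 type I targets in ventricle, MBNL2 replicate 1 exceeded +dox replicate 3 in 13 and MBNL2 replicate 2 did so in 9.

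Both MBNL2 replicates 1 and 2 were above replicate 3 in 19 of 21 type I targets but 5 of 20 GTPases in ventricle, and in 17 of 21 and 13 of 20 in atria. With the TC-53 libraries alone, which leaves out replicate 3, 12 members were called in ventricular MBNL2 mice, where 1.09% of all genes were called and 0.629% were called and higher. All 12 were type I targets and higher (Ifi44, Ifih1, Ifit1, Ifit3, Irf7, Isg15, Mx2, Oas1a, Oas2, Oasl1, Oasl2 and Usp18). With all libraries, the number called was 9 without +dox replicate 2 (2.06% of all genes), 2 without +dox replicate 1, 1 without MBNL2 replicate 2, and 0 without +dox replicate 3 or MBNL2 replicate 1. Without MBNL2 replicate 3 it was 5, all higher type I targets (Irf7, Isg15, Oas1a, Oas2 and Oasl1), where 0.697% of all genes were called and higher, and the 4 GTPases were no longer called.

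In the ventricles of MBNL1+MBNL2 mice 8 members were called, all lower, where 2.65% of all genes were called and 1.61% were called and lower. They were the GTPases Igtp, Iigp1, Irgm1, Irgm2, Gbp10, Gm12250 and F830016B08Rik, and the shared target Parp9. Igtp was at 17.7, 13.5 and 8.00 TPM (log2 fold change -4.67, SE 1.23, adjusted p = 0.0183, edgeR), with replicate 3 below +dox replicate 2 and the others above it. No member was called without +dox replicate 3 or MBNL1+MBNL2 replicate 1, 1 was called without MBNL1+MBNL2 replicate 2, 4 without replicate 3 and 20 without +dox replicate 2 (2.63% of all genes). The 3 MBNL1+MBNL2 libraries are all of the TC-56 series and the +dox replicates 1 and 2 are not. They are also all from males, while +dox replicate 3 is from a female. Cohort, series and sex thus partly coincide here.

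In -dox against +dox mice 51 of 52 log2 fold changes were below 0 in ventricle and 51 in atria, but few members were called in atria. In -dox atria 3 members were called, all lower (Usp18, Gm12250 and Ifit2), where 5.23% of all genes were called and 2.4% were called and lower. Usp18, the protease that removes ISG15 and dampens type I signalling, was at 3.35, 2.14 and 3.26 TPM in +dox and 0.76, 0.62 and 1.11 TPM in -dox atria, without overlap (log2 fold change -1.79, SE 0.43, adjusted p = 0.00392, edgeR). Gm12250 was at 8.52, 4.05 and 26.7 TPM against 0.63, 2.10 and 1.53 TPM (log2 fold change -3.13, SE 1.03, adjusted p = 0.0394, edgeR). Ifit2 was at 4.89, 3.95 and 7.18 TPM against 2.42, 3.09 and 3.54 TPM (log2 fold change -0.78, SE 0.26, adjusted p = 0.0363, edgeR). None of these 3 genes overlapped between the groups. Gm12250 and Ifit2 were no longer called when +dox replicate 1, +dox replicate 3 or any of the 3 -dox libraries was left out, which left Usp18 as the only called member.

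In TPM every atrial -dox library lay below every +dox library for 18 of 52 members, where 20.8% of all genes did so, and on TMM-normalized CPM for 20, against 18.1% of all genes. The 18 were 11 of 21 type I targets, 3 of 20 GTPases, 3 of 6 type II regulators and 1 of 5 shared targets, while in ventricle the 3 such members in TPM were 2 GTPases and 1 type I target. Igtp, at 21.5, 8.90 and 80.8 TPM in +dox and 5.46, 9.86 and 6.34 TPM in -dox atria, overlapped through +dox replicate 2 and was not called (log2 fold change -2.26). DESeq2 called 12 members in -dox atria, all lower, where it called 7.35% of all genes, and 3.21% were called and lower.

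No member was called in atria of +/-dox, MBNL1, MBNL2 or MBNL1+MBNL2 mice by edgeR, where 3.99%, 0.13%, 0.0052% and 0.26% of all genes were called. The numbers with an unadjusted p below 0.05 were 10, 0, 2 and 1, and DESeq2 called 2 (where it called 5.25% of all genes), 0, 0 and 0. The median log2 fold change over the GTPases was -1.44, -0.76, -0.60 and -1.17 in these 4 comparisons and that over the type I targets was -0.53, -0.02, 0.43 and -0.14. Atrial MBNL2 replicates 1 and 2 were high for type I targets as in ventricle, with Irf7 at 19.3, 15.0 and 8.11 TPM and Isg15 at 20.9, 16.4 and 8.96 TPM in replicates 1, 2 and 3. The atrial +dox libraries stood at 8.53, 5.53 and 9.97 TPM for Irf7 and 10.5, 6.74 and 9.05 TPM for Isg15, so all but MBNL2 replicate 3 exceeded them. Atrial MBNL1 replicate 3 was also high, with Irf7 at 16.1 TPM and Igtp at 40.7 TPM against 5.05 and 7.17 TPM, and 9.10 and 6.58 TPM, in replicates 1 and 2.

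The difference between tissues in the -dox effect was tested as an interaction, and no member passed (edgeR, adjusted p below 0.05, where 1.03% of all genes passed). The lowest adjusted p was 0.438, for Igtp, which was also the only member with an unadjusted p below 0.05, and DESeq2 called none. That fit treats the tissues as separate animals, whereas the study lists both tissues of the same animals. The lowest r of same-numbered libraries between tissues was 0.15 in +dox, 0.12 in -dox and 0.11 in MBNL2 mice. It was lower in +/-dox (0.06), MBNL1+MBNL2 (0.06) and MBNL1 mice (0.04), which the fit with blocks also held. With each cohort and replicate number as a block, so that the tissues of a number were compared within it, 2 of 52 members passed (Bst2 and Gbp8), where 3.08% of all genes passed. The count is near that share and is no result about the members as a set, and the block was chosen after seeing the data. The -dox against +dox log2 fold change was lower in ventricle than in atria by 0.67 for Bst2 (difference -0.67, SE 0.16, adjusted p = 0.0221, edgeR) and by 2.24 for Gbp8 (difference -2.24, SE 0.58, adjusted p = 0.0474, edgeR). For Igtp the difference was -2.49 (SE 0.88, adjusted p = 0.18, edgeR) with that block, and 16 members, 9 of them GTPases, had an unadjusted p below 0.05. The largest GTPase values were in ventricle. In +dox replicate 3 F830016B08Rik was at 887 TPM in ventricle and 17.0 TPM in atria, Igtp at 796 and 80.8 TPM, Iigp1 at 686 and 86.3 TPM, and Gbp10 at 145 and 12.5 TPM. In TPM 14 of 20 GTPases were higher in the ventricular library of that replicate. Gbp8 was higher in the atrial library (11.3 and 22.0 TPM, and 21.2 and 28.4 CPM after TMM scaling), as was Gbp11 (0.63 and 2.90 TPM). For Gbp2 the order depended on the scale, with 45.3 and 64.1 TPM but 87.3 and 84.8 CPM. The GTPases in that library were a median of 14.8 times the -dox mean in ventricle and 6.10 times in atria, and the type I targets 3.15 and 2.26 times.

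Without the repeat RNA the tissues differed for 8 members, where 24.9% of all genes were called between -dox atria and -dox ventricles. Gbp11 (log2 fold change 3.42, SE 0.54), Oasl2 (0.94, SE 0.37) and Ifih1 (0.75, SE 0.24), the last of them the RNA sensor MDA5, were higher in atria. Rsad2 (-2.38, SE 0.39), Oas2 (-1.42, SE 0.50), Ifit2 (-1.38, SE 0.26), Mx2 (-1.13, SE 0.35) and Dtx3l (-0.67, SE 0.20) were higher in ventricle. Rsad2, the antiviral enzyme viperin, was at 2.09, 2.26 and 3.35 TPM in -dox ventricles and at 0.44, 0.58 and 1.16 TPM in -dox atria, without overlap. Gbp11 was at 0.03, 0.10 and 0.16 TPM against 1.38, 1.22 and 1.3 TPM, also without overlap. Between these groups the median log2 ratio of TPM over all genes was 0.57 while that of the normalized fold change was 0.03. The direction of 16 uncalled members, none of the 8, differs between these scales, so levels in TPM are best compared within a tissue. Without atrial -dox replicate 2, 5 of the 8 were called. With each cohort and replicate number as a block, 16 members were called, against 25% of all genes, and they included all 8.

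By position, the GTPases lie in 5 groups of neighbours on 4 chromosomes (GENCODE M21 on GRCm38). The group on chromosome 3 (142493978 to 142638008; Gbp2, Gbp3, Gbp5 and Gbp7) had a median log2 fold change of -1.59 in -dox against +dox ventricles and values from -2.11 to -1.35. The group on chromosome 5 (105014150 to 105346472; Gbp4, Gbp6, Gbp8, Gbp9, Gbp10 and Gbp11) had a median of -1.86 and values from -5.68 to -0.80. On chromosome 11 the IRG genes form separate groups, with Irf1 between them. The first (48861968 to 49096974; Irgm1, Tgtp1, Tgtp2 and Ifi47) had a median of -2.58 and values from -2.98 to -1.60, and the other (58187739 to 58222782; Gm12250, Igtp and Irgm2) had a median of -4.79 and values from -5.54 to -4.34. Those on chromosome 18 (Iigp1, Gm4951 and F830016B08Rik) had a median of -4.86.

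Some of these genes are hard to tell from their copies. At least 20% of the 50-base stretches of Tgtp2 (86.6%), Gbp10 (84.1%), Tgtp1 (81.2%), Gbp6 (70.7%), Oas1a (57.6%) and Ifit3 (51.2%) occur in another gene, so the division of reads between such copies is uncertain. Igtp and Irgm2 overlap on the same strand, as do Gbp4, Gbp8 and Gbp9. Parp9 and Dtx3l overlap on opposite strands, and the strand setting used in counting is not given in the sources used here.

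The ligands themselves were hardly detected. Over 10 interferon ligand genes the summed TPM was at most 0.27 in any library, and Ifng, which encodes interferon gamma, was at most 0.24 TPM. In +dox replicates 1, 2 and 3 Ifng was listed at 0.03, 0 and 0.04 TPM in ventricle and at 0.03, 0.05 and 0.17 TPM in atria. The median log2 fold change over 9 genes for RNA and DNA sensors was -0.05 in -dox against +dox ventricles, against 0.01 over all genes.

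Markers of immune cells were set beside the members, since immune cells make interferon gamma and respond to it. In ventricular +dox replicates 1, 2 and 3, 9 natural killer and cytotoxic markers summed to 3.37, 1.12 and 9.30 TPM, against 1.1 to 2.24 TPM in -dox libraries. Klre1 was listed at 0 in +dox replicates 1 and 2 and -dox replicate 1, Eomes in +dox replicate 2 and -dox replicate 2, and Gzmb in -dox replicate 1. The median log2 fold change over the 7 of these markers that were tested was -1.36 in -dox against +dox ventricles, and 0 of the 7 were called by edgeR, with 2 at an unadjusted p below 0.05, or by DESeq2. The 10 T cell markers summed to 2.69, 2.52 and 6.17 TPM in +dox replicates 1, 2 and 3 and 2.90 to 3.08 TPM in -dox libraries, with Cd8a at 0 in +dox replicate 1 and Cd8b1 in -dox replicate 3. The 10 macrophage markers summed to 159, 117 and 180 TPM in +dox replicates 1, 2 and 3, against 113 to 135 TPM in -dox libraries. In atria the natural killer and cytotoxic sum reached 13.3 TPM in +dox replicate 3, 15.6 TPM in MBNL1 replicate 3 and 14.1 TPM in MBNL2 replicate 2. In -dox against +dox ventricles 2 of 7 monocyte and dendritic, 1 of 9 tested T cell and 1 of 10 macrophage markers were called (edgeR). Of all genes 7.6% were called, so the T cell and macrophage counts are near that share. Ccr2 (log2 fold change -1.76, SE 0.49) and Flt3 (-2.30, SE 0.84), monocyte and dendritic cell receptors, and Cd3g (-1.65, SE 0.60), a T cell receptor subunit, were lower, and Cd163 (0.64, SE 0.22), a resident macrophage receptor, was higher. The median log2 fold change was -1.43 over the monocyte and dendritic, -0.75 over the T cell and -0.25 over the macrophage markers, so Cd163 went against its list. The part of these cells in the GTPase levels was not tested, and in these bulk samples a change in cell number and a change in RNA per cell cannot be told apart.

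**Figure D5:**
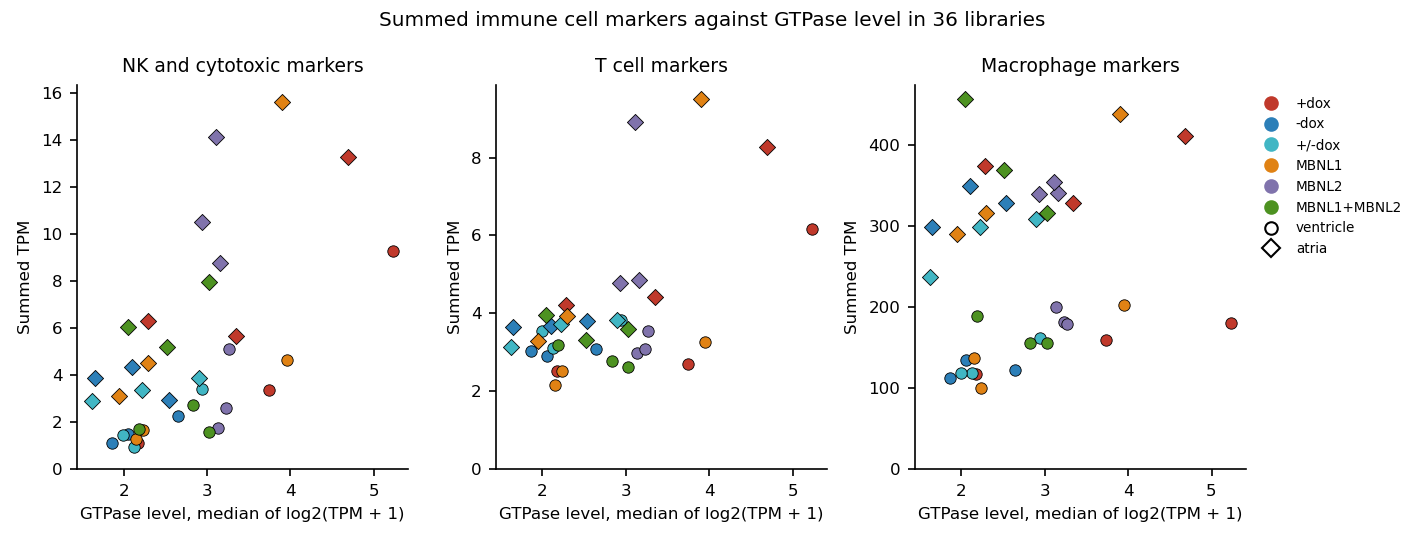
Summed TPM of 9 natural killer and cytotoxic, 10 T cell and 10 macrophage markers (vertical axes, linear from 0) against the GTPase level, the median of log2(TPM + 1) (horizontal axes), in 36 libraries coloured by cohort, with circles for ventricle and diamonds for atria. Ventricular +dox replicate 3 has the highest GTPase level (5.23) with 9.30 TPM of natural killer and cytotoxic markers.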

How the data were processed

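RNA of 36 libraries was analysed in 12 groups (6 cohorts in ventricle and atria, 3 libraries each), named from the sample labels. Per the study's methods and processing notes, alignment was to mm10 (STAR 2.7.10b) and quantification used RSEM 1.3.1 with GENCODE M25. The authors deposited expected counts, not scaled to library size, and TPM, which RSEM scales by transcript length and to a fixed sum.

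Expected counts were rounded and tested with the quasi-likelihood test of edgeR 4.0.16 (limma 3.58.1, R 4.3.3). The fit held all 36 libraries, 1 mean per group, TMM normalization and the default filterByExpr, and Benjamini-Hochberg adjustment covered 19231 genes per comparison. A call required a change of 1.5-fold or more and an adjusted p-value under 0.05, and the interaction had no fold threshold. Class levels are medians of log2(TPM + 1). The fit was tested on simulated data. DESeq2 1.42.0, other size factors, no filter, the libraries compared alone, 1 library series, a replicate block and leaving out each library were tried, and leaving out +dox libraries from the class spreads and a block of cohort and replicate number were chosen after seeing the data.

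Per-library values are given for members called against +dox mice and for the 2 most abundant of each class. Others are given by counts, and Irf7, Isg15, Oas2 and the members set beside them in MBNL2 mice and between tissues were picked after their values were seen. A result on a gene outside the members is not reported here. The members and lists were chosen with earlier results of these data known. Replicate numbers were checked for pairing by correlating deviations from the group means: for -dox atria against -dox ventricles every r of same-numbered libraries was above 0.1 (0.12 to 0.24), in +dox mice the lowest such r was 0.15, and a block of the replicate number called 10 members in place of 8 between -dox tissues. Positions came from GENCODE M21 (all 52 members found), and promoters from RefSeq (33 members). Python 3.11.15, numpy 2.4.6, pandas 2.3.3 and matplotlib 3.10.9 were used.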

Additional observations from a re-analysis of the deposited data

How the results depend on the processing

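The 62 calls of a member in a comparison kept their direction in all 744 refits, and 487 refits still called them. DESeq2 called all 62, RLE size factors 61, no filter 43, and the compared libraries alone 12. Members called in ventricle with the TC-53 libraries alone were 5 (-dox), 7 (+/-dox), 3 (MBNL1) and 12 (MBNL2), and in atria 5 (-dox) and 5 (+/-dox). With the compared libraries alone they were 1 (-dox), 1 (+/-dox), 0 (MBNL1), 0 (MBNL2) and 0 (MBNL1+MBNL2) in ventricle, 10 (-dox) and 3 (+/-dox) in atria, and 13 between the -dox tissues. DESeq2 called 28 (+/-dox), 5 (MBNL1) and 10 (MBNL2) in ventricle. In atria it called 12 (-dox, with 7.35% of all genes) and 2 (+/-dox, with 5.25% of all genes). Without a filter there were 0 (MBNL1) and 2 (MBNL2) in ventricle and 1 (-dox) in atria. A setting can also change the share of all genes called. Counts in this report that stand without that share show only how the calls moved, and are no result about the members.

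Leaving out 1 library gave 5 to 36 (-dox), 3 to 35 (+/-dox), 0 to 12 (MBNL1), 0 to 9 (MBNL2) and 0 to 20 (MBNL1+MBNL2) in ventricle, 1 to 4 (-dox) in atria, 5 to 7 between the -dox tissues and 0 in the other atrial comparisons and the interaction. The +dox spread ranged from 1.49 to 3.06 (ventricular GTPases), 0.35 to 1.14 (ventricular type I), 1.06 to 2.40 (atrial GTPases) and 0.21 to 0.70 (atrial type I), and in log2 TMM-normalized CPM the ventricular type I spread was 1.77. The cause of these differences was not tested.

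In ventricle a replicate block called 21 members (-dox), 17 (+/-dox), 2 (MBNL1), 6 (MBNL2) and 9 (MBNL1+MBNL2), and it called 4 in -dox atria. With cohort and replicate number together as the block, 2 members passed in the interaction and 16 were called between the -dox tissues. Against +dox mice the lowest r of same-numbered libraries was between -0.12 and 0.08, and in MBNL1 mice of both tissues each correlated best with its own. Replicate 3 shares library series and sex across cohorts other than MBNL1+MBNL2. Its r with atrial +dox replicate 3 was 0.21 (-dox), 0.24 (+/-dox), 0.29 (MBNL1), 0.25 (MBNL2) and -0.11 (MBNL1+MBNL2). In ventricle it was -0.01, 0.10, 0.13, 0.12 and -0.08 in the same order.

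The p-values rest on a spread per gene that is estimated over all 12 groups of 3 libraries, with both tissues of an animal counted as separate. They do not measure the spread of the compared libraries alone. In -dox against +dox ventricles the full fit called 22 members, and the compared libraries alone called 1. Gbp6, Mx1 and Cxcl10, and in ventricle Gbp8, Gbp11 and Socs1, rest on few counts. Relative to all genes, whose TPM shifted by 0.14 log2 units in ventricular MBNL2 mice, the sign of Ifih1 and Socs1 differed between TPM and the fit there.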
